A study of Rattus norvegicus with 12 samples.

Results

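The genes described here are the water channel genes Aqp1, Aqp2, Aqp3, Aqp4, Aqp5, Aqp6, Aqp7, Aqp8 and Aqp11 and the gene of the vasopressin V2 receptor, Avpr2, in rat kidney. They were chosen by name, as every row of the deposited expression tables that carries one of these 10 symbols. All 10 were listed once among the 22132 entries of the control and adenine table and once among the 32623 entries of the sham and UUO table. Of the 10 genes, 8 reached the minimum level for testing in each table, and Aqp5 and Aqp8 did not.

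RNA was sequenced from kidney tissue of 12 male rats of the SD strain, all labelled WT and 8 weeks old at purchase, with 3 rats in each of 4 groups. For the adenine model of renal fibrosis, a daily gavage of adenine was given over 3 weeks at a dose of 220 mg/kg, and the control rats were given saline. For the UUO model, the ureter of the left kidney was ligated (unilateral ureteral obstruction) and kidneys were taken after 2 weeks, with sham-operated rats as the reference. Levels are FPKM, in which fragment numbers are divided by the length of the transcript and by the library's mapped fragments, so that genes can be compared with each other within a table, and levels were not compared between the tables. The depth of the libraries is unknown, and the error of each value is the spread between 3 rats.

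Aquaporins are membrane channels for water, and some members also carry glycerol, ions or peroxide. In the collecting duct, vasopressin binds the V2 receptor on the basolateral side of principal cells, cAMP rises, and vesicles with AQP2 move to the apical membrane, while AQP3 and AQP4 let the water leave on the basolateral side. AQP1 is the constitutive water channel of the proximal tubule, the descending thin limb and the vasa recta. AQP7 and AQP8 are found in the proximal tubule, AQP11 lies inside proximal tubule cells, and AQP6 lies in vesicles of intercalated cells.

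The libraries of a group were not alike in the genes of single tubule segments and other cells. In control rat 2, Slc12a3, the sodium chloride cotransporter of the distal convoluted tubule, was at 12.9 FPKM against 197.4 and 163.7 in the other control rats. Its Slc14a1, a urea transporter of the medulla, was at 8.21 FPKM against 0.136 and 0.183. Among the adenine rats, rat 2 had Slc12a3 at 88.9 FPKM against 11.5 and 14.8. Adenine rat 1 had the fat cell genes Plin1 at 92.6 and Adipoq at 127.6 FPKM, where the other 2 adenine rats had at most 0.0656 and 4.31. UUO rat 1 likewise had Plin1 at 14.1 and Adipoq at 49.9 FPKM, against at most 0.0527 and 5.10 in the other UUO rats, and Hbb at 2069 FPKM against 297.3 and 602.5. Sham rat 3 had Slc14a1 at 0.0564 FPKM against 3.11 and 2.82. The part of the kidney that each sample came from is not given in the sources used here. The tissue label held for all 12 libraries, as Umod, made in the thick ascending limb, was at 61.3 FPKM or more and Lrp2, made in the proximal tubule, at 6.61 FPKM or more.

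Aqp1 was the most abundant of the 10 transcripts in all 4 groups, and Aqp5 and Aqp8 were the least abundant. In the control kidneys, mean levels ran from Aqp1 at 605.8 FPKM through Aqp2 at 68.9, Aqp7 at 66.0, Aqp6 at 55.2, Aqp3 at 40.4, Avpr2 at 18.2, Aqp11 at 8.42 and Aqp4 at 4.79 to Aqp8 at 0.544 and Aqp5 at 0.355. The values of Aqp2, Aqp7, Aqp6 and Aqp3 overlapped with those of their neighbours in this order, as did those of Aqp11 with Aqp4 and of Aqp8 with Aqp5. Sham kidneys had Aqp6 in the second place at 103.4 FPKM, above Aqp7 at 70.5, with no overlap between them. The order changed in the UUO kidneys, where Aqp2, at 5.25 FPKM, stood below Aqp7 (42.2 FPKM), Aqp6 (26.6 FPKM) and Aqp3 (23.4 FPKM) with no overlapping values. In adenine kidneys Aqp2 kept the second place at 35.7 FPKM, overlapping with Aqp6 at 34.5.

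**Figure D1:**
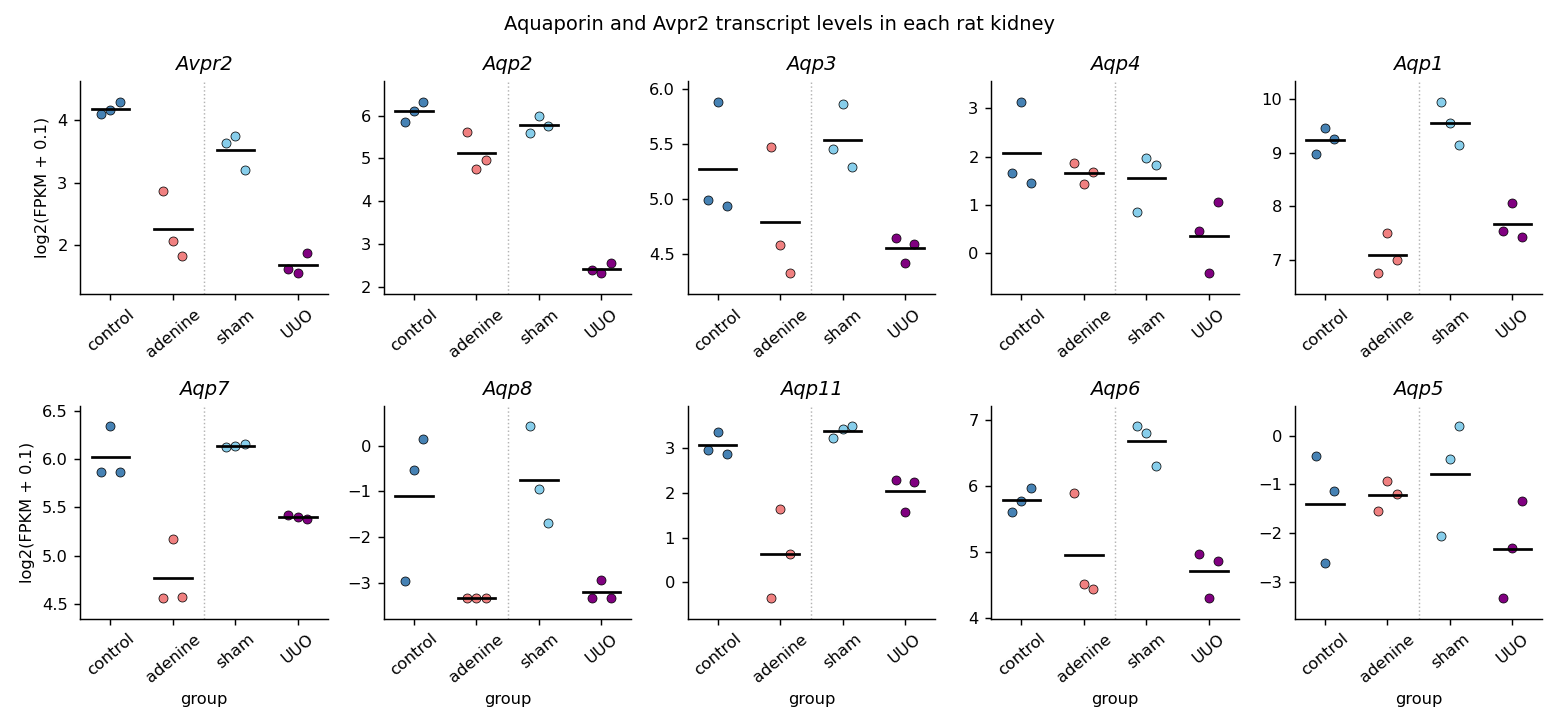
Levels of the 10 genes as log2(FPKM + 0.1), by group on the horizontal axis, with a point for each of 3 rats, placed from rat 1 on the left to rat 3 on the right, and a bar for the mean of the log2 values. Each panel has its own vertical range, the dotted line separates the tables, and Aqp2 in UUO rats, at 4.86 to 5.79 FPKM, lies far below sham rats, at 48.1 to 63.9 FPKM.

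The receptor gene Avpr2 fell to about the same share of its reference level in both models. Its level was 17.0, 17.9 and 19.6 FPKM in control rats 1 to 3 and 7.17, 4.08 and 3.42 FPKM in adenine rats 1 to 3. The groups did not overlap, and adenine rat 1 was the highest of its group. On the log2(FPKM + 0.1) scale, which is used for all fold changes, the change was -1.94 ± 0.27 (SE, n = 3 against 3; limma, Benjamini-Hochberg adjusted p = 0.00103). Sham rats 1 to 3 had 12.3, 13.3 and 9.12 FPKM of Avpr2, and UUO rats 1 to 3 had 2.96, 2.81 and 3.53 FPKM. These groups did not overlap either, and the change was -1.86 ± 0.18 (limma, adjusted p = 0.00016). UUO minus adenine, the changes of Avpr2 differed by 0.08, with a 95% CI of -0.61 to 0.78. In bulk tissue, fewer cells that make a transcript and less of it per cell cannot be told apart, here or for any gene below.

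Aqp2, the channel that vasopressin controls, had the largest difference in change between the models among the 8 tested genes. Control rats 1 to 3 had 58.0, 68.5 and 80.1 FPKM and adenine rats 1 to 3 had 49.1, 26.8 and 31.2 FPKM. The groups were separate, though adenine rat 1 came near control rat 1. Aqp2 thus fell by 0.98 on the log2 scale (SE 0.24; limma, adjusted p = 0.0116), to 51.8% of the control mean. In the other model, sham rats 1 to 3 had 48.1, 63.9 and 53.6 FPKM and UUO rats 1 to 3 had 5.12, 4.86 and 5.79 FPKM. All UUO rats were within 1 FPKM of each other and far below every sham rat. The change was -3.36 ± 0.13 (limma, adjusted p = 1.09e-05), and the UUO mean was 9.52% of the sham mean. UUO minus adenine, the changes of Aqp2 differed by -2.38 ± 0.28 (95% CI -2.97 to -1.79; difference of the limma fits, adjusted p = 0.000131).

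Of the 8 genes tested in both models, Aqp2 was the 1 that passed the test of the difference, both under the rule of an adjusted p under 0.05 with a difference of at least 2 and under the adjusted p alone. Over 13486 genes, 2.88% met the first rule and 27.0% the second, and the median difference was 0.28. Aqp6 came next, with a difference of -1.12 (95% CI -2.08 to -0.17; difference of the limma fits, adjusted p = 0.0749). Aqp11 went the other way with 1.08 (95% CI -0.05 to 2.22; difference of the limma fits, adjusted p = 0.14). For Aqp1, Aqp3, Aqp4 and Aqp7 the differences were 0.27, -0.51, -0.77 and 0.52, with adjusted p of 0.101 or more. Other settings brought more differences past the adjusted p alone. Aqp6 passed with median-of-ratios scaling at -1.43 (difference of the limma fits, adjusted p = 0.045), without adenine rat 3 (adjusted p = 0.0498) and without sham rat 3 (adjusted p = 0.0464). Without adenine rat 2, Aqp11 passed at 1.58 (difference of the limma fits, adjusted p = 0.0168) and Aqp7 at 0.73 (adjusted p = 0.0166). Each model has its own control animals, so no sample is shared between the fits.

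**Figure D2:**
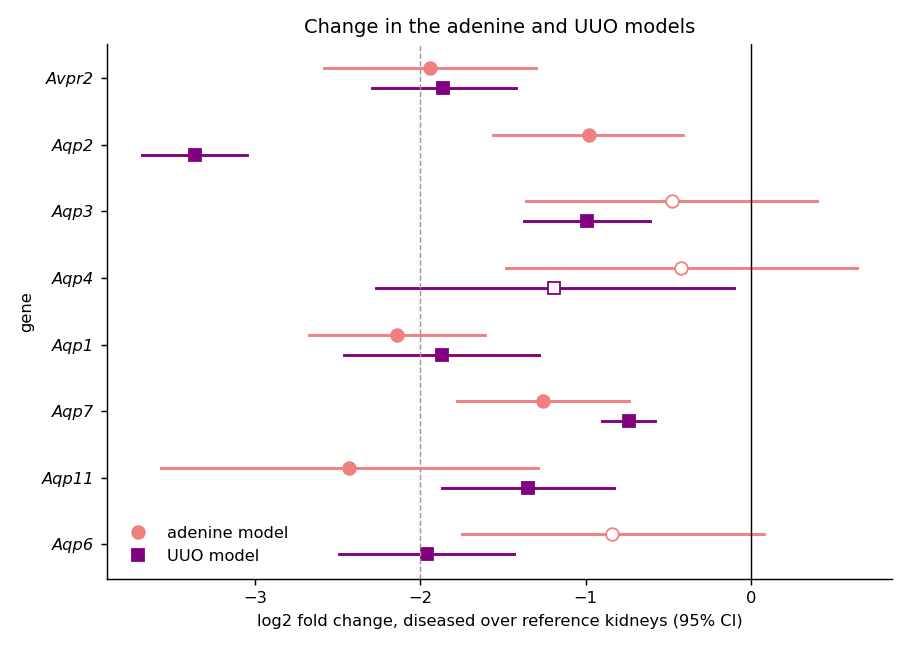
Log2 fold changes of the 8 tested genes, adenine over control (circles) and UUO over sham (squares), with 95% confidence intervals. Filled symbols have a limma adjusted p under 0.05, the dashed line marks -2, and the pair of intervals for Aqp2, -1.56 to -0.41 and -3.68 to -3.05, do not meet.

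The basolateral channels of the principal cell changed less than Aqp2 in the UUO model. Aqp3, which also carries glycerol, was at 43.6, 58.3 and 39.1 FPKM in sham rats 1 to 3 and at 24.9, 21.2 and 24.0 FPKM in UUO rats 1 to 3. All UUO values lay below all sham values, and Aqp3 fell by 0.99 on the log2 scale (SE 0.16; limma, adjusted p = 0.0014). In the adenine table Aqp3 was at 31.7, 59.0 and 30.4 FPKM in control rats 1 to 3 and at 44.2, 23.8 and 19.9 FPKM in adenine rats 1 to 3. Adenine rat 1 was above 2 of the 3 control rats, control rat 2 was the highest of all, and the change of -0.48 did not pass (95% CI -1.36 to 0.40; limma, adjusted p = 0.295). Without these 2 rats, a setting added after the values were seen, the change was -0.51 and passed (limma, adjusted p = 0.0347).

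Aqp4, a water channel with high permeability, was low in kidney and did not pass the test in either model. Control rats 1 to 3 had 3.05, 8.71 and 2.62 FPKM of Aqp4 and adenine rats 1 to 3 had 3.56, 2.58 and 3.11 FPKM. The value of 8.71 belonged to control rat 2, the library with high Slc14a1, and the others overlapped. The change was -0.42 (95% CI -1.48 to 0.64; limma, adjusted p = 0.441), and without control rat 2 it was 0.11. Sham rats had 1.71, 3.79 and 3.43 FPKM and UUO rats 1.26, 0.645 and 1.97 FPKM of Aqp4, with sham rat 1 below UUO rat 3. That change was -1.19 (95% CI -2.27 to -0.10; limma, adjusted p = 0.0514). It passed with median-of-ratios scaling at -1.70 (limma, adjusted p = 0.0148) and without UUO rat 3 (adjusted p = 0.0265) or sham rat 1 (adjusted p = 0.0243).

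Aqp1, the main water channel of the proximal tubule, fell in both models. Its level was 503.7, 705.6 and 608.0 FPKM in control rats 1 to 3 and 107.9, 181.7 and 128.7 FPKM in adenine rats 1 to 3, far from any overlap. The change was -2.14 ± 0.22 (limma, adjusted p = 0.00033), and without adenine rat 1 it was -1.97, short of the fold threshold of 2. Sham rats 1 to 3 had 989.6, 755.0 and 562.0 FPKM of Aqp1 and UUO rats 1 to 3 had 185.8, 267.2 and 172.8 FPKM. These were also separate, with a change of -1.87 ± 0.25 (limma, adjusted p = 0.000581). Endothelial and red blood cells carry AQP1 too. Of 7 tested endothelial genes in the UUO model 0 fell and 4 rose at an adjusted p under 0.05, and their sum was 128.1 to 146.4 FPKM in sham and 223.3 to 261.5 FPKM in UUO rats. Their median change was 0.75, beside 0.62 over all tested entries. With median-of-ratios scaling 1 of the 7 fell and 2 rose. In the adenine model 4 of 7 fell and 2 rose, with sums of 124.5 to 158.4 FPKM in control and 61.5 to 79.2 FPKM in adenine rats. The median change there was -0.72, beside 0.30 over all tested entries. Of 6 tested red blood cell genes 4 fell in the adenine model, with sums of 1120 to 2058 and 213.8 to 855.6 FPKM, and of 4 in the UUO model 1 fell (Slc4a1, which intercalated cells also make), with sums of 345.1 to 692.1 and 303.9 to 2095 FPKM. The part of both cell types in the result for Aqp1 was not tested.

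Aqp7, which carries glycerol as well as water, fell less than Aqp1. Control rats 1 to 3 had 58.3, 81.1 and 58.5 FPKM of Aqp7 and adenine rats 1 to 3 had 23.5, 36.1 and 23.6 FPKM, without overlap, for a change of -1.26 ± 0.22 (limma, adjusted p = 0.00262). The UUO table held the tightest values of all 10 genes, with 70.0, 70.3 and 71.3 FPKM in sham rats 1 to 3 and 42.7, 42.2 and 41.7 FPKM in UUO rats 1 to 3. The change of -0.74 ± 0.07 was small and well beyond this spread (limma, adjusted p = 0.000117). Aqp7 is also made by fat cells, whose 5 tested genes summed to 69.9 to 162.0 FPKM in control and 475.0 to 1956 FPKM in adenine rats, with 1 rise (Fabp4) and 0 falls past the test. Fabp4 carried this sum, at 1667, 462.6 and 648.1 FPKM in adenine rats 1 to 3. Plin1, Adipoq and Cidec were higher in adenine rat 1 than in any control rat and below the control means in adenine rats 2 and 3. The part of fat cells in the result for Aqp7 was not tested.

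Aqp11, an aquaporin of the endoplasmic reticulum, fell in both models. It was at 7.71, 10.3 and 7.24 FPKM in control rats 1 to 3 and at 0.684, 3.01 and 1.46 FPKM in adenine rats 1 to 3. The adenine values spread over a wide range, yet all were below the control values, and the change was -2.43 ± 0.48 (limma, adjusted p = 0.00467). It was -1.94 without adenine rat 1, the lowest value. Sham rats 1 to 3 had 9.26, 10.8 and 11.2 FPKM of Aqp11 and UUO rats 1 to 3 had 4.83, 2.87 and 4.65 FPKM. The groups were separate and the change was -1.35 ± 0.22 (limma, adjusted p = 0.00147).

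Aqp8, found inside proximal tubule cells, was too low to be tested. It was listed at 0.0299, 0.597 and 1.01 FPKM in control rats 1 to 3 and at 0 in all 3 adenine rats. In sham rats it was at 1.24, 0.416 and 0.211 FPKM, while UUO rat 2 had 0.0319 FPKM and UUO rats 1 and 3 were at 0.0001, the lowest value of that table. Neither model had overlapping groups for Aqp8 (two-sided exact permutation test, p = 0.1, the smallest that 3 against 3 allows), and the levels are too near 0 for a fold change.

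Aqp6, the anion-permeable channel of intercalated cell vesicles, was high in these kidneys. Sham rats 1 to 3 had 119.5, 111.7 and 79.1 FPKM and UUO rats 1 to 3 had 31.3, 19.6 and 28.9 FPKM of Aqp6. The UUO values were all lower, with a change of -1.96 ± 0.22 (limma, adjusted p = 0.0003). In the other table control rats 1 to 3 had 48.4, 54.7 and 62.6 FPKM and adenine rats 1 to 3 had 59.2, 22.8 and 21.5 FPKM. Adenine rat 1 lay within the control range and the others far below it, and the change of -0.84 did not pass (95% CI -1.75 to 0.08; limma, adjusted p = 0.101). Without adenine rat 1 the change was -1.31 (limma, adjusted p = 0.00109). Aqp5, a channel of secretory glands, was below the test's minimum, with 0.646, 0.0633 and 0.356 FPKM in control, 0.245, 0.422 and 0.335 FPKM in adenine, 0.142, 0.619 and 1.04 FPKM in sham and 0.0001, 0.103 and 0.298 FPKM in UUO rats 1 to 3. Both pairs of groups overlapped.

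All 8 tested genes had a fold change below 0 in both models, and 0 rose. Of all tested entries, 37.5% were below 0 in the adenine and 24.9% in the UUO model. At an adjusted p under 0.05, 5 of 8 fell in the adenine model (Avpr2, Aqp1, Aqp2, Aqp7 and Aqp11), where 19.9% of all tested entries fell. The count in the UUO model was 7 of 8, all but Aqp4, where 14.4% of all tested entries fell. With the added condition of a log2 fold change of at least 2, the study's rule for a DEG, Aqp1 and Aqp11 were DEGs in the adenine model (5.03% of all entries were lower by this rule) and Aqp2 was the 1 DEG in the UUO model (4.21%). 3 more fold changes in the UUO model, of Aqp1, Aqp6 and Avpr2, lay between -1.86 and -1.96. The UUO count was therefore 4 without sham rat 3 or with median-of-ratios scaling, and 2 when any 1 of the UUO rats was left out. The groups did not overlap for 5 of 8 genes in the adenine model (23.0% of all tested entries did not overlap and were lower) and for 7 of 8 in the UUO model (15.7%).

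The median change of the 8 genes was -1.12 in the adenine and -1.60 in the UUO model, where the median over all tested entries was 0.30 and 0.62. FPKM thus placed most entries above 0. The share of all tested entries that rose at an adjusted p under 0.05 was not counted. Counts of rises in gene lists therefore have only these medians beside them. Counts of falls in gene lists stand beside the 19.9% (adenine model) and 14.4% (UUO model) of all tested entries that fell. Relative to the median entry the members' changes ran from -2.73 for Aqp11 to -0.72 for Aqp4 in the adenine model and from -3.98 for Aqp2 to -1.36 for Aqp7 in the UUO model. Scaling the libraries by median ratios brought the median entry to 0.07 and 0.08, and all 8 members stayed below 0 in both models with medians of -1.36 and -2.14.

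The summed level of the 9 aquaporins fell from 850.4 ± 138.6 FPKM (SD, n = 3) in control to 271.7 ± 36.6 FPKM in adenine kidneys and from 1060 ± 231.4 FPKM in sham to 311.6 ± 41.6 FPKM in UUO kidneys, without overlap in either model (two-sided exact permutation test, p = 0.1, the smallest possible). Aqp1 made up 70.8% to 71.5% of this sum in control rats and 37.4% to 61.1% in adenine rats. Its share was 68.5% to 77.1% in sham and 61.7% to 74.5% in UUO rats. The share of Aqp2 was 6.93% to 9.42% in control and 9.01% to 17.0% in adenine rats, which overlapped, and 3.75% to 6.53% in sham and 1.35% to 2.07% in UUO rats, which did not.

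The ratio of Aqp2 to the gene of its receptor was higher in every adenine rat and lower in every UUO rat than in the reference rats. Control rats 1 to 3 had 3.41, 3.83 and 4.09 times as much Aqp2 as Avpr2 in FPKM, and adenine rats 6.84, 6.56 and 9.12 times as much. In sham rats the ratio was 3.91, 4.80 and 5.88, and in UUO rats it was 1.73, 1.73 and 1.64. Both pairs of groups were separate, the adenine ratios higher and the UUO ratios lower than their references (two-sided exact permutation test in each table, p = 0.1, the smallest possible). The ratio of Aqp2 to Aqp1 moved likewise, from 0.115 ± 0.0175 to 0.281 ± 0.158 in the adenine and from 0.0762 ± 0.0245 to 0.0264 ± 0.00772 in the UUO model. Aqp2 over Aqp3, the apical over the basolateral channel, was 1.10, 1.10 and 1.37 in sham and 0.205, 0.229 and 0.241 in UUO rats 1 to 3. Control and adenine rats overlapped in this last ratio, at 1.87 ± 0.736 and 1.27 ± 0.254. These ratios were chosen after the members' values were known.

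**Figure D3:**
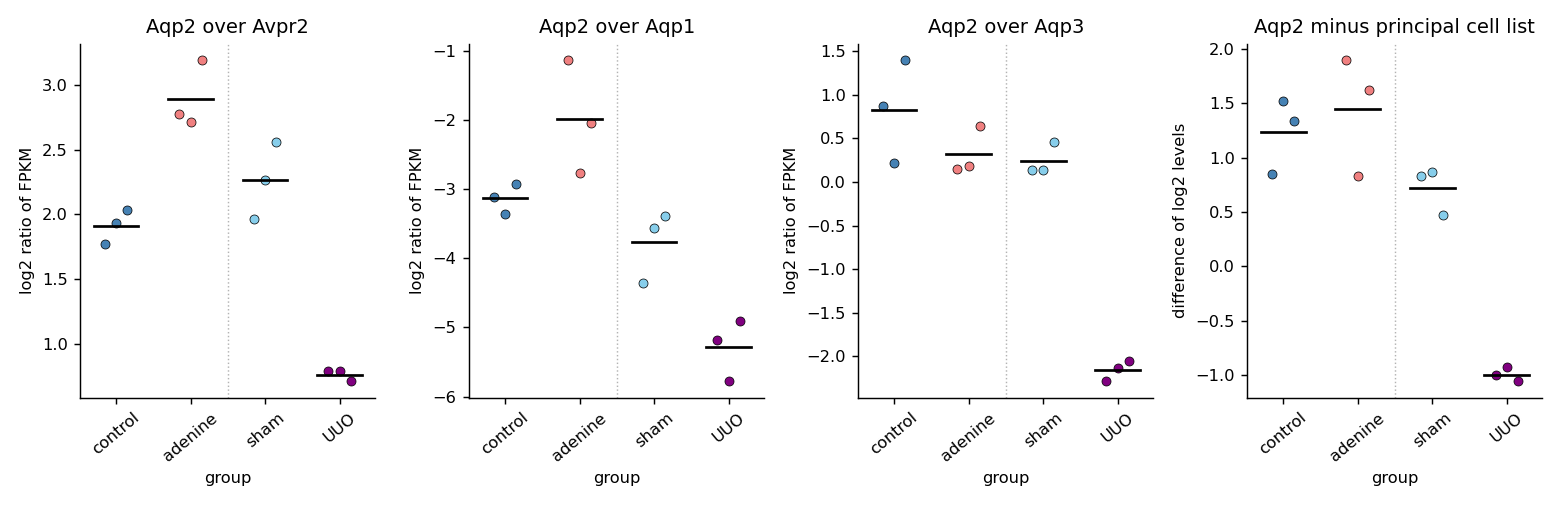
Aqp2 in each rat against Avpr2, Aqp1 and Aqp3, as the log2 ratio of FPKM, and against the mean log2 level of 9 principal cell genes, by group, with a bar for the mean of 3 rats. Adenine rats lie above control rats in the first 2 panels, and UUO rats lie below sham rats in all 4.

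Genes that mark the principal cell also fell, so the members were set against the mean log2 level of such a list in each rat. The list of 9 holds the sodium channel subunits Scnn1a, Scnn1b and Scnn1g, the potassium channel Kcnj1, Hsd11b2, Fxyd4, St6gal1, Tmem45b and Npnt. Kcnj1 is also made in the thick ascending limb, and the part of that segment in its level was not tested. Of the 9, 7 fell in each model at an adjusted p under 0.05 (limma) and 0 rose, with a median change of -1.12 in the adenine and -1.42 in the UUO model. Fxyd4, a regulator of the sodium pump, fell most, by 2.11 in the adenine and 4.04 in the UUO model on the log2 scale. Aqp2 stood 1.24 ± 0.35 above the list in control and 1.45 ± 0.55 above it in adenine rats, with overlap (two-sided exact permutation test, p = 0.6). In the UUO table the difference between Aqp2 and the list went from 0.47 to 0.87 in sham rats to -1.06 to -0.93 in UUO rats, without overlap (exact permutation test, p = 0.1, the smallest possible). Aqp3 went the other way against the same list, from 0.48 ± 0.40 to 1.14 ± 0.15, also without overlap (exact p = 0.1). Avpr2 overlapped in both models, with a difference of -0.74 in the adenine and -0.22 in the UUO table.

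Intercalated cell genes fell more than Aqp6 in the adenine model. Of 10 such genes, 9 fell under adenine and 10 under UUO at an adjusted p under 0.05, with medians of -2.70 and -1.56. Slc4a1, the basolateral anion exchanger of acid-secreting cells, was lowest in both, at -3.89 and -2.85 (limma, adjusted p = 0.000669 and 0.000113). Against the mean of the list, Aqp6 was 0.12 ± 0.81 in control and 1.77 ± 0.59 in adenine rats, without overlap, and 1.05 ± 0.46 in sham and 0.71 ± 0.17 in UUO rats, with overlap. The list's summed level ranged from 324.0 to 933.9 FPKM among the control rats alone, and control rat 2 was the lowest of the control rats for each of the 10 genes. Its part in the adenine result was not tested.

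Proximal tubule genes split in the adenine model, where 4 of 10 fell and 3 rose at an adjusted p under 0.05. Slc34a1, the sodium phosphate cotransporter, had the largest fall, at -4.31. The 3 rises were those of Slc7a7, Slc5a12 and Slc4a4, the basolateral bicarbonate cotransporter. Slc4a4 and Slc5a12 reached the minimum through the adenine rats, at 5.83 to 25.2 and 3.22 to 12.5 FPKM. Control rats 2 and 3 had 0.493 FPKM or less of either gene, so no fold is read from them. Slc5a2, at 13.7, 0.232 and 2.47 FPKM in control rats 1 to 3, also reached the minimum only with the adenine rats. These genes are all in the list whose mean is used here. That mean log2 level was 5.55, 3.20 and 4.19 in control rats 1 to 3 and 3.20, 5.36 and 4.57 in adenine rats 1 to 3. Differences from it in the adenine table are thus not independent of the filter, and no result about a member is read from them. In the UUO model 5 of 10 fell and 1 rose. Aqp11 lay -1.24 ± 1.38 from the mean log2 level of this list in control and -3.73 ± 0.19 in adenine rats, without overlap. In the UUO table the groups overlapped for Aqp11, as they did for the other proximal members in both tables. Aqp1 went from 4.92 ± 1.42 to 2.71 ± 0.74 in the adenine table, with overlap (two-sided exact permutation test, p = 0.2), and from 3.69 ± 0.74 to 3.40 ± 0.55 in the UUO table (exact p = 0.8). The summed level of the list was 850.9 to 2003 FPKM in control and 123.4 to 515.6 FPKM in adenine rats, and 1322 to 1979 FPKM in sham and 168.1 to 421.8 FPKM in UUO rats.

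Few genes of a list for vasopressin and cAMP signalling fell in whole kidney, as was so for all tested entries. The levels of the list genes in principal cells were not measured. A list of 20 genes held the other vasopressin receptors, adenylyl cyclases, protein kinase A subunits, an anchoring protein, phosphodiesterases and CREB factors, and 18 were tested in each model. At an adjusted p under 0.05 (limma), the adenine model had 11 rises and 2 falls and the UUO model 13 rises and 1 fall. Medians were 0.88 and 0.83 beside 0.30 and 0.62 over all entries. Of all tested entries, 19.9% fell in the adenine and 14.4% in the UUO model, so few falls are not particular to this list. The share of all entries that rose was not counted, and the rises of the list include Creb5 in both models. With median-of-ratios scaling the counts were 10 and 2 in the adenine and 9 and 3 in the UUO model. Adcy6, the adenylyl cyclase that makes most of the cAMP for vasopressin in principal cells, fell by 0.52 in the adenine model (limma, adjusted p = 0.0356) and by 0.75 with median-of-ratios scaling. In the UUO model its change was 0.31 (limma, adjusted p = 0.0309), below the median entry of 0.62, and -0.23 with median-of-ratios scaling (adjusted p = 0.0984), so its direction there depended on scaling. Adcy3 and Pde4b were DEGs in the UUO model, at 2.31 and 2.08, but were not with median-of-ratios scaling, at 1.78 and 1.55. Creb5 was counted as a DEG in both models by the FPKM fit, but it reached the minimum through the diseased rats (0.793 to 1.18 FPKM in adenine and 0.693 to 0.879 FPKM in UUO rats) with every control and sham rat at 0.239 FPKM or less, so no fold is read from it. Pde4b, which breaks down cAMP, is also made by leukocytes. A list of leukocyte genes, 8 tested in the adenine and 7 in the UUO table, had sums of 164.1 to 347.2 FPKM in control, 1319 to 2035 FPKM in adenine, 267.3 to 407.8 FPKM in sham and 1750 to 2484 FPKM in UUO rats. Their part in these rises was not tested.

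Genes of the vesicle traffic that carries AQP2 to and from the membrane moved both ways, and their counts depended on scaling. Of 19 tested in the adenine model 10 rose and 3 fell, and of 18 in the UUO model 13 rose and 0 fell at an adjusted p under 0.05 (limma). The medians of the list were 0.35 and 0.41, beside 0.30 and 0.62 over all tested entries. In the UUO model the list thus lay below the median entry. The fallers in the adenine model were Rab11a at -0.32, Vamp8 at -0.55 and Hspa8 at -0.62. With median-of-ratios scaling 6 rose and 4 fell in the adenine model and 4 rose and 3 fell in the UUO model, where the median of the list went from 0.41 to -0.13.

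Among 11 transcription factors of the collecting duct, 2 fell and 1 rose in the adenine model and 6 fell and 2 rose in the UUO model (limma, adjusted p under 0.05). Of all tested entries, 19.9% fell in the adenine and 14.4% in the UUO model, so the adenine count of falls was near that share. The medians of the list were -0.00 and -0.51, beside 0.30 and 0.62 over all tested entries. Elf5, an ETS factor, was low in all kidneys. Its level was 1.37, 2.85 and 2.05 FPKM in sham rats 1 to 3 and 0.102, 0.210 and 0.0609 FPKM in UUO rats 1 to 3. It was at 1.15, 1.93 and 0.678 FPKM in control rats 1 to 3 and at 0.644, 0.435 and 0.372 FPKM in adenine rats 1 to 3, without overlap in either model. Elf5 reached the minimum for testing through the reference rats, and its UUO values lie near the added 0.1 FPKM, so its falls in these counts are not independent of the filter and no fold is read from them. Elf3, another ETS factor, rose in both, from 30.7 ± 6.93 to 151.8 ± 8.29 FPKM in the UUO model (log2 change 2.33; limma, adjusted p = 5.6e-05) and from 23.7 ± 4.62 to 69.4 ± 3.8 FPKM in the adenine model (1.57, adjusted p = 0.000286). Nr3c2, the mineralocorticoid receptor, fell in the UUO model by 1.32 (limma, adjusted p = 0.000546), with a change of 0.39 in the adenine model (adjusted p = 0.356).

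Over all 12 rats, the gene whose pattern was most like that of Aqp2 was Kcnj1, an apical potassium channel that is also made in the thick ascending limb. Elf5 came next, but it reached the minimum for testing through the reference rats. Its place rests on UUO values near the added 0.1 FPKM, so it is not read as a match. Likeness was the root mean square difference of log2 levels, each centred on the control or sham mean of its table, and 13478 genes were compared. It was 0.388 for Kcnj1 and 0.453 for Elf5, followed by Tmem72 at 0.495, Abcb11 at 0.496 and Slc16a7 at 0.504. Kcnj1 changed by -0.97 and -2.97 in the adenine and UUO models, beside -0.98 and -3.36 for Aqp2. For Aqp1 the nearest were Gamt (0.176), Hpn (0.195), Cisd3 (0.198), Ahcy (0.220) and Prep (0.220). Avpr2 was nearest to Sult2b1 (0.257), Mpc1 (0.264), Bckdha (0.265), Echs1 (0.274) and Aldh2 (0.288), and none of these was among the 5 nearest to Aqp2. These are descriptions of pattern over libraries that share depth and tissue makeup.

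**Figure D4:**
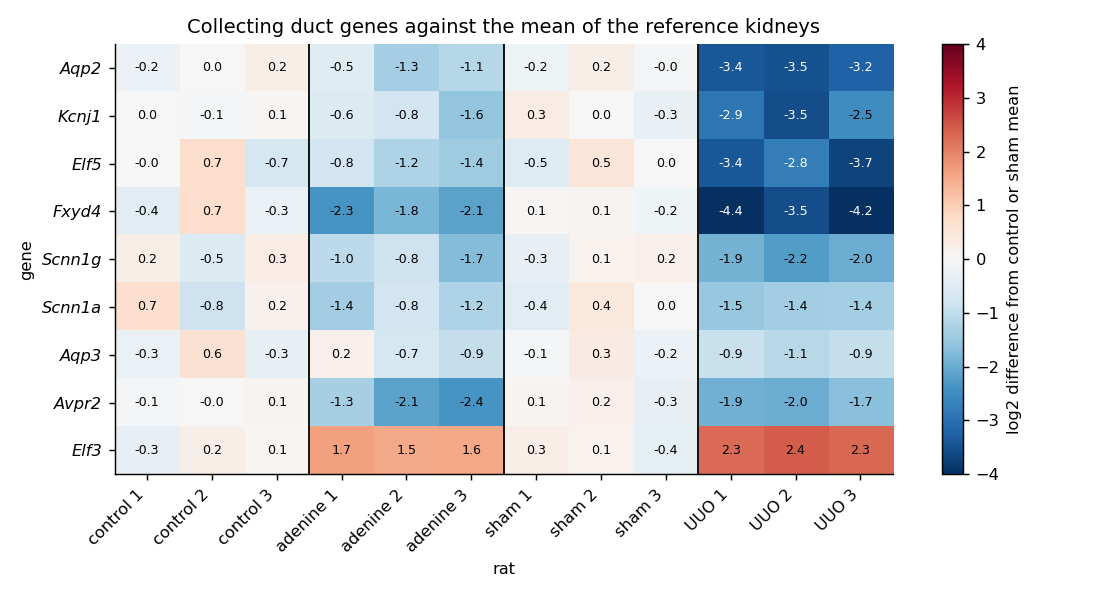
Collecting duct genes (rows) in each of the 12 rats (columns), as the log2(FPKM + 0.1) level minus the mean of the control or sham rats of the same table, from blue (lower) to red (higher). Aqp2, Kcnj1, Elf5 and Fxyd4 share deep values in UUO rats 1 to 3, where Aqp3 and Avpr2 are lower by less and Elf3 is higher. The levels of Elf5 in UUO rats lie near the added 0.1 FPKM, and Kcnj1 is also made in the thick ascending limb.

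Among genes of the concentrated medulla, Akr1b1, which makes sorbitol, rose in both models, by 1.93 and 2.20 on the log2 scale (limma, adjusted p = 6.2e-05 and 4.3e-05). Of 6 tested urea transporter and osmolyte genes, 4 rose and 0 fell in each model, and 3 rose in each with median-of-ratios scaling. The medians were 1.71 and 1.76, beside 0.30 and 0.62 over all tested entries. Slc6a12, counted among the 4 of the adenine model, was at 0.356, 4.9 and 0.85 FPKM in control rats 1 to 3. It reached the minimum for testing only with the adenine rats, so no fold is read from it. Slc14a1, counted among the 4 of the UUO model, was at 3.11, 2.82 and 0.0564 FPKM in sham rats 1 to 3. In UUO rats 1 to 3 it was at 10.9, 13.0 and 15.3 FPKM. Slc14a1 reached the minimum only with the UUO rats, so no fold is read from it either. Slc14a1 did not pass with median-of-ratios scaling (limma, adjusted p = 0.0612), quantile normalization, no filter or any 1 UUO rat left out. The urea transporter gene Slc14a2 was listed more than once and left out of the counts. The highest value among its entries, taken in each rat separately, was 4.01, 4.56 and 0.127 FPKM in sham rats 1 to 3. In UUO rats 1 to 3 it was 0.0178, 0.443 and 0.0001 FPKM, with overlap. The urothelium, which lines the renal pelvis and also makes AQP3, was near 0 in sham rats by its markers and not in UUO rats. All 6 markers that reached the minimum in the UUO table did so only with the UUO rats, so no count is given. Their sum was 0.646 to 2.76 FPKM in sham and 73.3 to 146.1 FPKM in UUO rats. The part of the urothelium in the UUO levels of Aqp3 and Slc14a1 was not tested. Among urothelial genes of the adenine table, 2 were tested and 0 changed, with sums of 0.688 to 5.03 and 0.785 to 2.35 FPKM. The other aquaporin genes Mip, Aqp9 and Aqp12a were listed and below the minimum for testing, and the highest value was Aqp9 at 1.66 FPKM in adenine rat 1.

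In the RefSeq annotation of the rat assembly GRCr8, Aqp2, Aqp5 and Aqp6 lie next to each other on chromosome 7, and Aqp7 and Aqp3 are neighbours on chromosome 5. No other annotated gene overlaps any of the 10. The neighbours on chromosome 7 were at very different levels in sham kidneys, 55.2 ± 7.97 FPKM for Aqp2, 0.599 ± 0.447 FPKM for Aqp5 and 103.4 ± 21.5 FPKM for Aqp6. Of the 10 genes, 9 had an entry in the RefSeq promoter table and Aqp7 had none.

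The 250 bases before the annotated start are given here for the 3 genes that were DEGs, Aqp2, Aqp1 and Aqp11, and for the receptor gene, 5′ to 3′ on the strand of the gene. Capitals mark matches to any of the motifs searched on both strands, which were the cAMP response element TGACGTCA, its shorter core TGACG, the AP-1 site TGANTCA, the HNF1 core GTTAAT and the ETS core CCGGAA. The shorter core of the cAMP response element is part of the whole element, so a window with the whole also holds the core. The windows are chr7:132590036-132590285 (plus strand) for Aqp2, chrX:156784889-156785138 (plus strand) for Avpr2, chr4:85812534-85812783 (plus strand) for Aqp1 and chr1:161467919-161468168 (minus strand) for Aqp11, all in GRCr8.
Aqp2: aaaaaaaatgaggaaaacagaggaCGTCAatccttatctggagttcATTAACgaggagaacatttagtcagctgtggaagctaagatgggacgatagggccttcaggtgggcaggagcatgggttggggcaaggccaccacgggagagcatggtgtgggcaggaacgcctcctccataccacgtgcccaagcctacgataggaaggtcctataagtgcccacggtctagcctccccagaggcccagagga
Avpr2: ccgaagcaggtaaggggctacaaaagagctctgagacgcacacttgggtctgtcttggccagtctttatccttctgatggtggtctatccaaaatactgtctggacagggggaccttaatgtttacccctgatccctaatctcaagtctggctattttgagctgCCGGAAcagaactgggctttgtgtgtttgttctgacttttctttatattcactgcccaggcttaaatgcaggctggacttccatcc
Aqp1: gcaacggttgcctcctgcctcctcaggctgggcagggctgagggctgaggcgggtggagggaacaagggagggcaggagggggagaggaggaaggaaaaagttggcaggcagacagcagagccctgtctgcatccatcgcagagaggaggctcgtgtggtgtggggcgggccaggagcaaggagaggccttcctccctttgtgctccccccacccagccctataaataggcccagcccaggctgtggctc
Aqp11: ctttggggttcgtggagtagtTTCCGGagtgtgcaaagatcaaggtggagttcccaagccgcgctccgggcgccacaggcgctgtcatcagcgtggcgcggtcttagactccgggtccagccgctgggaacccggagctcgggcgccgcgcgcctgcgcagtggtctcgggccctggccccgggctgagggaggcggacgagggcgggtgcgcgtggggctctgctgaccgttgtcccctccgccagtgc

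The Aqp2 window held TGACG on the minus strand, beginning 226 bases before the start and read as CGTCA above, and GTTAAT on the minus strand 204 bases before the start. The Avpr2 window held CCGGAA 86 bases before the start, and the Aqp11 window held it on the minus strand 229 bases before the start. Aqp1 held none of the 5 motifs, and neither did the windows of the other 5 genes. Among all 33469 windows of the table, 18.2% held TGACG, 1.59% TGACGTCA, 6.34% TGANTCA, 6.45% GTTAAT and 12.6% CCGGAA. These matches describe the letters of the windows and were not tested as binding sites.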

How the data were processed

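Kidney RNA-seq libraries of 12 rats were grouped by their labels, with 3 rats in each of 4 groups. The authors deposited FPKM values per gene in 2 tables, made separately for the adenine and UUO models. The submitters' processing notes name cutadapt 1.9, HISAT2 2.0.4 and StringTie 1.3.4d, and the genome build is not given in the sources used here. Read depth is unknown and could not be recovered from the low values.

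Each table was analysed on its own as log2(FPKM + 0.1) for entries that reached an FPKM of 0.5 in 3 or more of the 6 samples (15029 in the adenine and 15043 in the UUO table), with limma 3.58.1 (lmFit, eBayes with trend) in R 4.3.3 and Benjamini-Hochberg adjustment over all of them, since the study's test needs counts. An entry counted as a DEG when its adjusted p was under 0.05 and its log2 fold change reached 2 in either direction. The difference between models was that of the fold changes over the root of the summed squared standard errors, for 13486 symbols listed once and tested in both tables. Single ratios had two-sided exact permutation tests (scipy 1.17.1). The p-values measure the spread between rats, and the steps were tested on simulated data.

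Members, gene lists and motifs were chosen with earlier results of these data known, so their counts are descriptions. List genes with several entries in a table (such as Gnas) were left out. The rule named, in each list, the DEGs with the largest rise and fall and, for Aqp2, Aqp1 and Avpr2, the 5 genes of most similar pattern, and not all of these are reported here. Adcy6, Pde4b, Nr3c2, Akr1b1, Slc14a2, Slc5a12, Slc7a7 and the falling vesicle genes were named after their values were seen. Alternatives varied the pseudocount, filter, scaling, eBayes trend, fold threshold, replicate block and rats left out. Promoter windows came from RefSeq (GRCr8).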

Additional observations from a re-analysis of the deposited data

Results flagged for a closer look

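The change of Aqp2 differed between the models, by -2.38 on the log2 scale (UUO minus adenine; difference of the limma fits, adjusted p = 0.000131), and it stayed between -2.56 and -2.12 when any 1 rat was left out. The ratio of Aqp2 to Avpr2 was higher in every adenine rat and lower in every UUO rat than in the reference rats. Its log2 changes were 0.98 under adenine and -1.50 under UUO. The ratio of Aqp2 to Aqp1 did the same, by 1.15 and -1.52. These ratios were chosen after the members' values were known and restate the fold changes of their members. The difference between the models in these ratios was not tested. Libraries differed in segment genes within the groups, and their part in these values was not tested.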

How the results depend on the processing

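The direction of all 8 tested genes held in both models under every alternative except for Aqp4 in the adenine model, which ranged from -0.74 to 0.11 with 1 rat left out (0.11 without control rat 2) and was 0.00 without control rat 2 and adenine rat 1 (a setting added after the values were seen). The number of genes lower at an adjusted p under 0.05 was 5 to 6 in the adenine model over the other alternatives and 7 without these 2 rats, and 7 to 8 in the UUO model. Counts of DEGs moved more, since several fold changes lie near the threshold. The adenine count of 2 was 3 with median-of-ratios scaling and 3 with quantile normalization (Avpr2 then at -2.18 and -2.22), 1 with FPKM rescaled to the same sum, 1 with a pseudocount of 1, 1 without these 2 rats, 1 to 2 with any 1 rat left out (1 without adenine rat 1) and 5 without the fold threshold. The UUO count of 1 was 4 with median-of-ratios scaling, 3 with quantile normalization, 2 with no filter, 1 to 4 with any 1 rat left out and 7 without the fold threshold. Aqp2 was called as different between the models under every alternative. The difference for Aqp1 reversed to -0.04 with median-of-ratios scaling and -0.02 without control rat 2 and adenine rat 1 (0.06 to 0.48 with 1 rat left out), and that for Avpr2 to -0.22 with median-of-ratios scaling, -0.29 with quantile normalization and as low as -0.13 (range -0.13 to 0.39) with 1 rat left out, and was 0.40 without control rat 2 and adenine rat 1. The difference of Aqp8 from the proximal tubule list in the UUO model went from -0.86 to 0.95 with a pseudocount of 1. The causes were not tested.

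Rats share replicate numbers in the labels. The numbers did not pair the samples in the adenine table, where same-numbered rats correlated at -0.123 to -0.0487. In the UUO table same-numbered rats correlated weakly, at 0.05 to 0.105, but each sham rat correlated best with the UUO rat of its own number. A pairing in the UUO table is therefore not settled. A fit with the replicate block gave 2 DEGs among the members in the adenine and 1 in the UUO model, as without it. The difference for Aqp7 then passed at 0.52 (difference of the limma fits, adjusted p = 0.019). Unknown depth limits the lowest genes, Aqp5 and Aqp8.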
